A study of Mus musculus with 16 samples.

Results

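The promoters of 44 ribosomal protein genes were described in immortalised mouse embryonic fibroblasts (MEFs): 27 genes of the large subunit (Rpl and Rplp, 1981 CpGs) and 17 of the small subunit (Rps, 979 CpGs). For each gene, every CpG of the table of all libraries that lay within 1 kb of any annotated transcript start was taken, which gave 2960 of the 1203687 CpGs measured on 16 chromosomes. The rule takes genes by name and position and uses no methylation value, but the set was chosen with earlier results of these data known. The methylation level of a CpG is the percentage of its reads that were methylated, and the level of a promoter is the mean over its CpGs.

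The cells came from 2 sibling C57BL/6J embryos taken at E13.5 and were immortalised by serial passaging through crisis. Each embryo gave 1 parental line (MEF-1 and MEF-2), and single cells sorted from each parental line were grown into 7 clonal lines, so that 2 parental and 14 clonal libraries were compared. The labels name no genetic change and no treatment in any line. MEF-1 is male and MEF-2 female, so a family is 1 embryo, 1 sex, 1 culture and 1 passage through crisis, and these cannot be told apart. The clonal lines served as replicates of their family, so p-values measure the spread between lines grown from 1 culture, and each parental line is 1 library without a replicate.

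Ribosomal proteins are the protein components of the large and small subunits of the ribosome. Their genes are expressed in all growing cells, their start sites mostly lie in CpG islands, which are CpG-rich stretches that stay free of DNA methylation in most tissues, and their transcripts often begin with a C and a run of pyrimidines, the TOP motif through which mTOR signalling controls translation. Because every cell needs them, they serve as a housekeeping reference for how clean an unmethylated promoter is, where it ends and how often a single cell lineage departs from it.

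The libraries held 59243669 to 90633091 methylation calls, with a median of 26 to 39 reads a CpG over the table, and the median member promoter had 30.5 reads a CpG. Intervals on single libraries are 95% Wilson intervals and cover counting error only, since PCR reads without molecular identifiers are not independent molecules. Among the fibroblast genes fixed as markers, Col1a1, Col1a2, Vim and Fn1 had levels of 1.13%, 1.28%, 1.44% and 1.59% within 1 kb of the main start, whereas S100a4 stood at 43.3% and Pdgfra at 21.4%. Thy1 had no CpG measured there and stood at 94.1% over 9 CpGs near its other starts. The promoters of the blood genes Ptprc and Spi1 and of the germ line genes Dazl, Ddx4, Mael and Sycp3 were methylated at 76.7% to 88.7%, those of the pluripotency genes Pou5f1 and Nanog at 66.6% and 70.2%, and those of the epithelial genes Epcam, Cdh1, Krt18 and Krt8 at 15.7%, 20.9%, 39.6% and 88.7%. Dppa3, also a pluripotency gene, had no CpG measured at its main start and stood at 12.2% near other starts. MEF-1 clonal lines 1, 4 and 5 stood closer to each other than other lines did: their read counts differed by 2.65 to 2.88 times sampling noise (a mean chi-square of 1 is noise alone), against 3.70 to 6.18 for the other pairs of MEF-1 lines and 4.85 to 7.67 for MEF-2 pairs. No pair was within sampling noise, but since reads are not independent molecules this does not show that lines 1, 4 and 5 are unrelated. All lines were counted separately, and the comparisons between families were repeated without these 3 lines. Where a family difference of a promoter or CpG is described, a call lost this way or a move over 1.5 times is given. CpGs named for other reasons are not followed in this way.

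Positions are given in base pairs from the main start, which is that of the principal protein-coding transcript, with negative positions upstream. The sequences below (mouse GRCm38.p6, the mm10 build) were picked after the values were known, to show the core of 3 promoters and the upstream edges and gene body sites on which the results turn. Each is read 5′ to 3′ along the gene, and capitals mark the CpGs measured in all libraries. In the 150 bases before the start of Rps9, Rps6 and Rps3, the clonal mean of every measured CpG lay between 0.298% and 2.70%.

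Rps9, chr7:3703843-3703992, plus strand, positions -150 to -1: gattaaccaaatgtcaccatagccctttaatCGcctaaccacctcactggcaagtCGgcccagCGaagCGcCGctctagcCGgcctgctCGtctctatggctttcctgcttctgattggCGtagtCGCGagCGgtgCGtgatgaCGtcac
Rps6, chr4:86857413-86857562, minus strand, positions -150 to -1: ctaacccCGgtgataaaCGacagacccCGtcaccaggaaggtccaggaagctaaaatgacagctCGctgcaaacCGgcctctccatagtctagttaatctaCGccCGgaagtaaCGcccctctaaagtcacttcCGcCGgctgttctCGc
Rps3, chr7:99483739-99483888, minus strand, positions -150 to -1: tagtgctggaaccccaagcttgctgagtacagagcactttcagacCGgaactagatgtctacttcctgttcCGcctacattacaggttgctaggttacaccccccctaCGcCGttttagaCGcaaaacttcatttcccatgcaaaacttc

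The stretches at the upstream edges hold CpGs close to the start that were highly methylated in both families, others that were intermediate or low in both, and others that differed between families.

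Rpl8, chr15:76903728-76903887, plus strand, positions -350 to -191: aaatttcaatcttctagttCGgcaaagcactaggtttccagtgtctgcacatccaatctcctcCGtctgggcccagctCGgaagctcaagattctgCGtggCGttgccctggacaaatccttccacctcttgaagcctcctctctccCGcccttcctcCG
Rps3, chr7:99484059-99484218, minus strand, positions -480 to -321: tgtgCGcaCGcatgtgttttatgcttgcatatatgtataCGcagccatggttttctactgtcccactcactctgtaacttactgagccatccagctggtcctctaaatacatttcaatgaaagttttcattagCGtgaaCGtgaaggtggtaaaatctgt
Rpl24, chr16:55966045-55966114, plus strand, positions -230 to -161: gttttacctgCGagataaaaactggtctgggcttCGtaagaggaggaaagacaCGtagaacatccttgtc
Rplp0, chr5:115558987-115559066, plus strand, positions -480 to -401: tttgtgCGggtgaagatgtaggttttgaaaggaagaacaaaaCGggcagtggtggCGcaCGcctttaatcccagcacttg
Rpl5, chr5:107900152-107900201, plus strand, positions -350 to -301: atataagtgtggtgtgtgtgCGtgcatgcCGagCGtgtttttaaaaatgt
Rpl22, chr4:152325463-152325602, plus strand, positions -390 to -251: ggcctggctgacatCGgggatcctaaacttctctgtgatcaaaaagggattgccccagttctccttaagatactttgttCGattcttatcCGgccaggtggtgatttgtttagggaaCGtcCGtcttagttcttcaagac
Rpl19, chr11:98026294-98026453, plus strand, positions -630 to -471: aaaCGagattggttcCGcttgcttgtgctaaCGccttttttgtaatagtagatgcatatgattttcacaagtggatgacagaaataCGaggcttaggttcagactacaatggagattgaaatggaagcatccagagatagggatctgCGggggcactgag

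The last stretch lies in an intron of the main transcript of Rpl13, around an internal annotated start, and overlaps exons of retained-intron transcripts of the same gene.

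Rpl13, chr8:123103550-123103769, plus strand, positions 1200 to 1419: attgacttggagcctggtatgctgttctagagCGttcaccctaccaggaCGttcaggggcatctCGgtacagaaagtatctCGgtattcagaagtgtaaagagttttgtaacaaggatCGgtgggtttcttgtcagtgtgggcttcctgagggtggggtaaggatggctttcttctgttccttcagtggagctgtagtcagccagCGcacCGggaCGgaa

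The 44 promoters had a mean level of 11.8% ± 0.409 (SD, n = 7) in MEF-1 clonal lines and 11.6% ± 0.179 (SD, n = 7) in MEF-2 clonal lines, with 12.1% and 11.6% in the parental libraries. The MEF-1 lines ran from 11.4% to 12.3% and the MEF-2 lines from 11.4% to 11.9%, so the families overlapped, and the difference of 0.213 points was not larger than the spread between lines (two-sided exact permutation test, p = 0.22). The 13083 promoters of other protein-coding genes with 5 or more CpGs averaged 22.4% ± 0.200 and 21.4% ± 0.242 in the same lines. In each of the 14 lines the ribosomal protein promoters were lower, by 9.42 to 11.0 points (mean difference -10.1, exact sign-flip test over lines, p = 0.000122, the smallest that 14 lines can give). That test is over lines and says nothing of the spread between genes.

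Single genes ranged widely. Rpl38 (1.39%), Rplp1 (1.40%), Rps25 (1.56%), Rps16 (2.12%), Rps15 (2.27%) and Rps21 (2.41%) had the lowest clonal means, and Rpl11 (36.1%), Rpl6 (33.5%), Rpl7 (33.4%), Rpl27 (27.8%), Rps18 (27.4%) and Rpl4 (26.9%) the highest. Rplp1, a protein of the ribosomal stalk, lay between 0.756% and 2.13% in all 14 lines, and Rpl11, which also binds and inhibits MDM2, between 34.4% and 39.3%. Rps16 rests on 12 CpGs, the fewest of any member, and Rpl3 has the most, 143. The 6 highest genes were not methylated at their main start: there Rpl4 stood at 1.22%, Rpl27 at 1.45%, Rpl7 at 1.53%, Rps18 at 1.59%, Rpl6 at 1.75% and Rpl11 at 1.79%. Their high values came from CpGs near other annotated starts, which for Rpl11 span 24630 bp.

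Counting only CpGs within 1 kb of the main start, the median member stood at 2.10% (range 1.22 to 16.05), with 2.11% for the large subunit and 1.89% for the small subunit, and 33 of 44 were under 5%, where the median of all promoters was 8.03% and 37.6% were under 5%. Rps20 (16.05%), Rpl41 (15.2%), Rpl24 (12.0%), Rplp0 (11.7%) and Rpl22 (10.7%) were the highest by this measure.

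**Figure D1:**
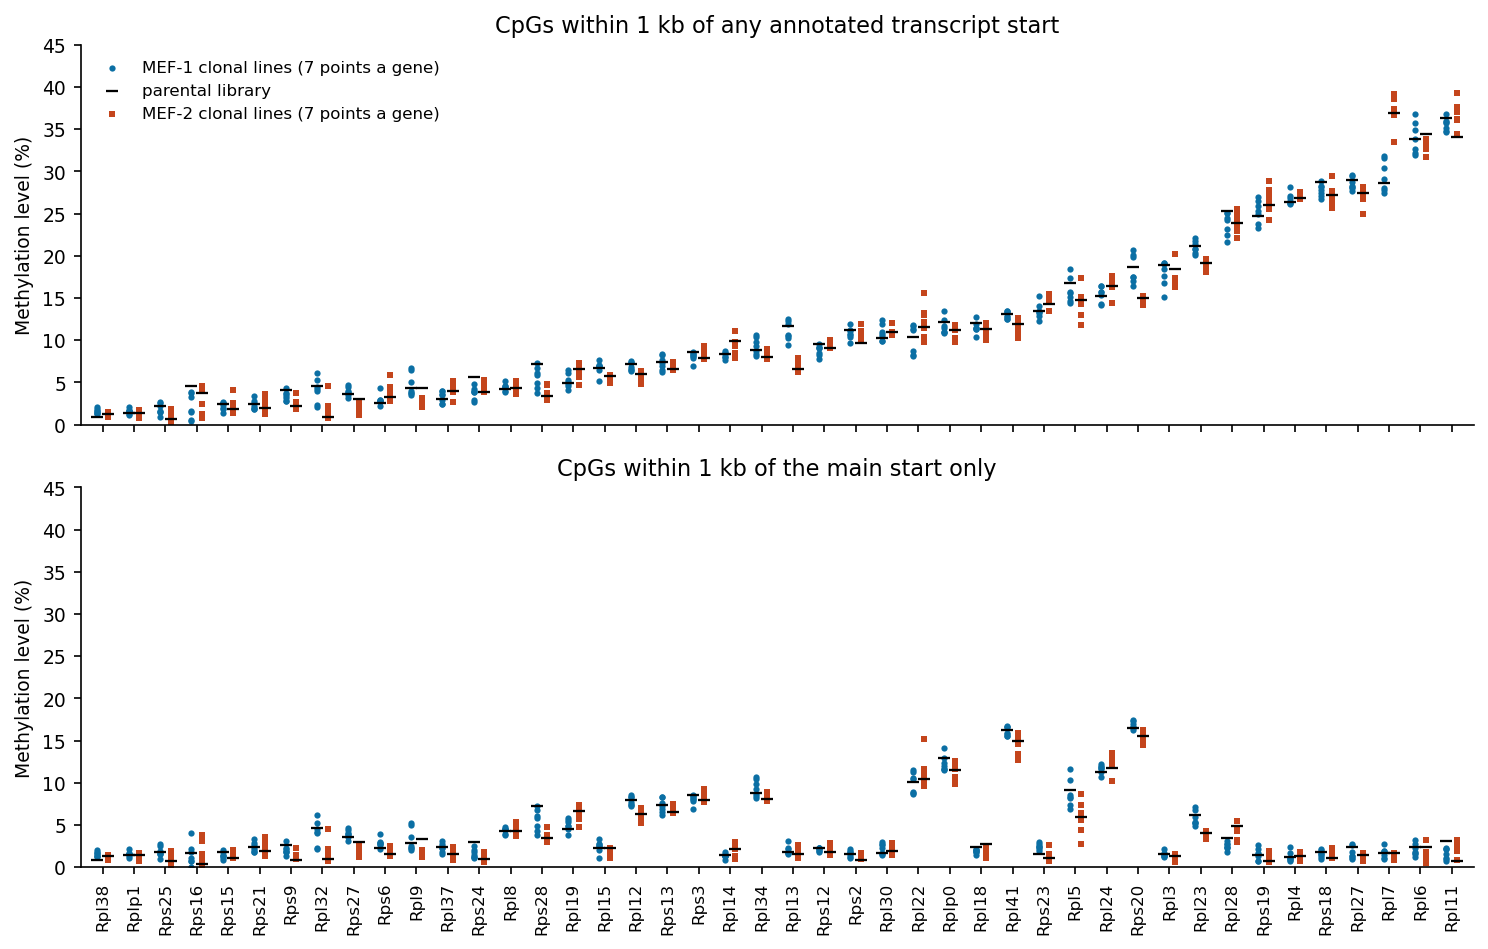
Methylation level (%) of the 44 promoters, ordered by clonal mean, with 7 points a family for the clonal lines and a bar for each parental library. The upper panel takes CpGs near any annotated start and rises from 1.39% (Rpl38) to 36.1% (Rpl11); the lower panel takes the main start only, where the 6 genes at the right end lie below 4% and Rps20, Rpl41, Rpl24, Rplp0 and Rpl22 stand out.

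The bottom of the unmethylated stretch was flat. Between positions -150 and 500, a window chosen after the profile was seen, 1448 CpGs averaged 1.49% ± 0.0751 in MEF-1 lines (1.37 to 1.60) and 1.16% ± 0.0663 in MEF-2 lines (1.07 to 1.27). The highest clonal mean of any CpG there was 6.64%, 98.2% of all values in single libraries were under 10%, and 71.9% were exactly 0. With a median of 441 reads over all libraries a CpG, levels of this size rest on a few methylated reads. Other genes had 7.55% and 7.06% in the same window.

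The families did not overlap in this window. The MEF-1 lines were higher by 0.331 points (exact permutation test, p = 0.000583, the smallest that 7 against 7 lines can give). Over all 400416 CpGs of the table with a clonal mean under 5%, MEF-1 lines averaged 2.01% and MEF-2 lines 1.65%, a difference of 0.359 points. In the members the order did not hold at every low position: between 700 and 800 the MEF-1 mean was 1.70% and the MEF-2 mean 2.03%. How much of the shift comes from incomplete bisulfite conversion, which gives methylated calls at unmethylated CpGs, was not tested, and no conversion rate is given in the sources used here.

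Methylation rose at both ends of the stretch, but at different distances. In steps of 100 bp, the clonal mean was 1.61% or less from position -200 to 600. Upstream it was 3.11% between -300 and -200, 7.81% in the next step out, then 11.2% and 17.1%, and 62.1% between -900 and -800. Downstream it stayed at 2.99% between 800 and 900, reached 6.75% in the next step and 18.6% between 1000 and 1100.

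**Figure D2:**
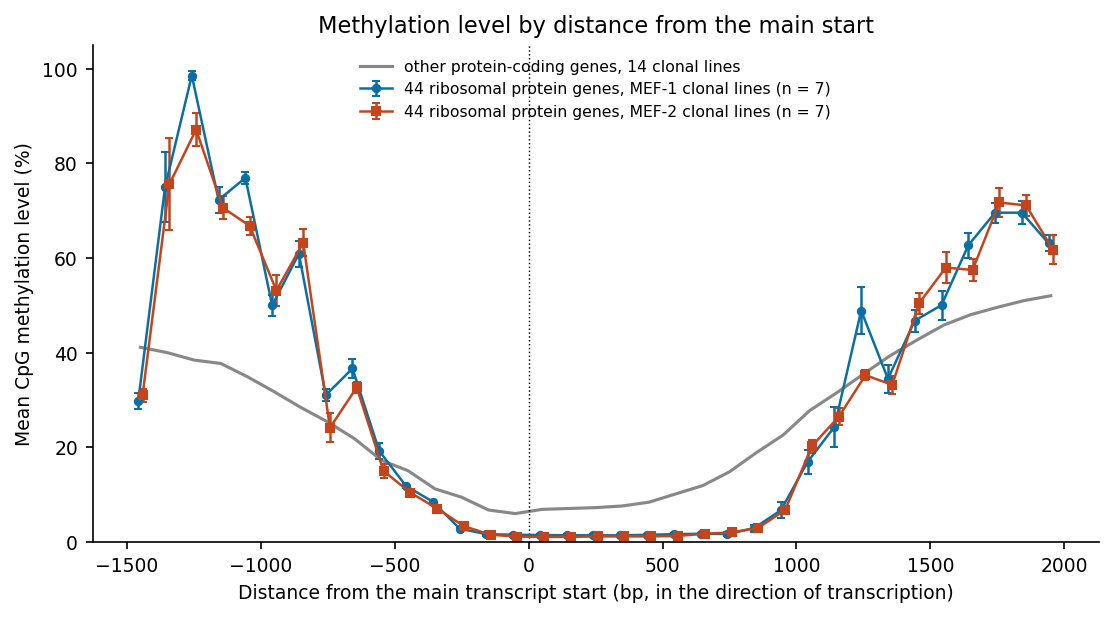
Mean CpG methylation level (%) in steps of 100 bp against distance from the main start, with MEF-1 and MEF-2 clonal lines as mean ± SD over 7 lines each and other protein-coding genes as a grey line. The mean of the ribosomal protein genes over all 14 lines stays below 2% from -200 to 800 and rises closer to the start upstream than downstream, and other genes lie above them from -500 to 1000.

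By zone, the 1828 CpGs within 500 bp of the main start averaged 2.42% ± 0.0703 in MEF-1 and 2.07% ± 0.1003 in MEF-2 lines (difference 0.348 points, exact permutation p = 0.000583, adjusted over the 4 zones 0.00117). The 155 CpGs from 500 bp to 1 kb upstream, which 26 of the 44 genes had, averaged 33.9% ± 1.36 and 30.9% ± 0.951, again without overlap (difference 2.99, exact permutation p = 0.000583, adjusted 0.00117). The 518 CpGs from 500 bp to 1 kb downstream averaged 2.51% ± 0.427 and 2.42% ± 0.164, and the families overlapped (p = 0.58, exact permutation test). Taking both sides together, CpGs beyond 500 bp were 7.11 points higher than those within (14 of 14 lines, exact sign-flip p = 0.000122). The upstream side was 30.0 points higher than the downstream side (27.1 to 33.1, higher in 14 of 14 lines, exact sign-flip p = 0.000122), a contrast chosen after the profile was seen. Over all 14 lines the downstream side exceeded the inner zone by a mean of 0.217 points (higher in 11 of 14 lines, exact sign-flip p = 0.0334), but without MEF-1 lines 1, 4 and 5 the mean was 0.155 (higher in 8 of 11 lines, exact sign-flip p = 0.161). In that comparison of 4 with 7 lines the step was -0.173 points in MEF-1 and 0.343 in MEF-2. Without MEF-1 lines 1, 4 and 5 the difference between families was 0.330 points in the inner zone (exact permutation p = 0.00303, the smallest possible) and 2.15 points upstream (p = 0.00606, exact permutation test), while downstream it turned to -0.186 points (2.23% against 2.42%, p = 0.23, exact permutation test).

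In other genes the inner, upstream and downstream zones averaged 8.68%, 23.7% and 14.9%. There the MEF-1 lines were higher than the MEF-2 lines by 0.495, 1.09 and 0.829 points (exact permutation p = 0.000583 in each zone). The ribosomal protein genes were lower than other genes in the inner zone by 6.43 points and in the downstream zone by 12.4 points. In the upstream zone, where 26 of the 44 genes had a CpG, they were higher by 8.67 points. Each held in 14 of 14 lines (exact sign-flip p = 0.000122 in all 3 zones). As for whole promoters, the sign-flip tests against other genes are over lines and say nothing of the spread between genes.

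The upstream edge varied between genes, and the median gene stood at 13.7% and the median CpG at 9.85%, well below the mean of all upstream CpGs. Rps28 (98.7% at 1 CpG), Rpl41 (85.6% over 5), Rpl24 (83.4% over 7), Rps20 (83.4% over 8) and Rpl22 (78.6% over 7) had the highest means between 500 bp and 1 kb upstream. The lowest was Rpl4 with 1.19% at 1 CpG. Downstream, Rps28 (25.6% over 3 CpGs), Rpl30 (17.4% over 3), Rpl19 (10.4% over 9), Rpl34 (5.52% over 20) and Rpl28 (4.67% over 25) led, and the median gene had 1.71%. A CpG with a clonal mean of 50% or more lay within 1 kb upstream in 15 genes and within 1 kb downstream in 2, Rpl19 at position 939 and Rpl28 at position 977. Within 3 kb it was found downstream in 39 genes, at a median position of 1558, and upstream in 26, at a median position of -840.5. The measured CpGs were fewer upstream, so a gene without such a CpG may not have been measured there. The table held a median of 61.9% of the reference CpGs within 1 kb of the main start (9.57% for Rps16 to 95.9% for Rpl3).

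Within 500 bp of the main start, 30 of 1828 CpGs (1.64%) had a clonal mean of 10% or more. They belonged to 13 genes, Rpl5, Rpl8, Rpl12, Rpl19, Rpl22, Rpl23, Rpl24, Rpl32, Rpl41, Rplp0, Rps3, Rps9 and Rps23, and every one lay upstream, between positions -493 and -196. In Rpl8 the edge was sharp: the mean over clonal lines was 97.3% at position -272, 13.3% at -254, 12.3% at -249 and 2.59% at -203. In Rps3 the 3 CpGs at -476, -472 and -441 were at 98.1% to 99.2%, and in Rplp0, the stalk protein P0, those at -425 and -421 were at 97.9% and 99.0%. In Rpl5, which forms a complex with RPL11 and 5S rRNA, the CpGs at -330 and -321 were intermediate, at 47.1% and 48.7%. At -321 the lines ranged from 6.67% to 87.5%. At -317 the MEF-1 lines averaged 92.3% ± 12.5 and the MEF-2 lines 44.5% ± 17.4 (adjusted p = 0.0041, quasi-binomial model described below).

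**Figure D3:**
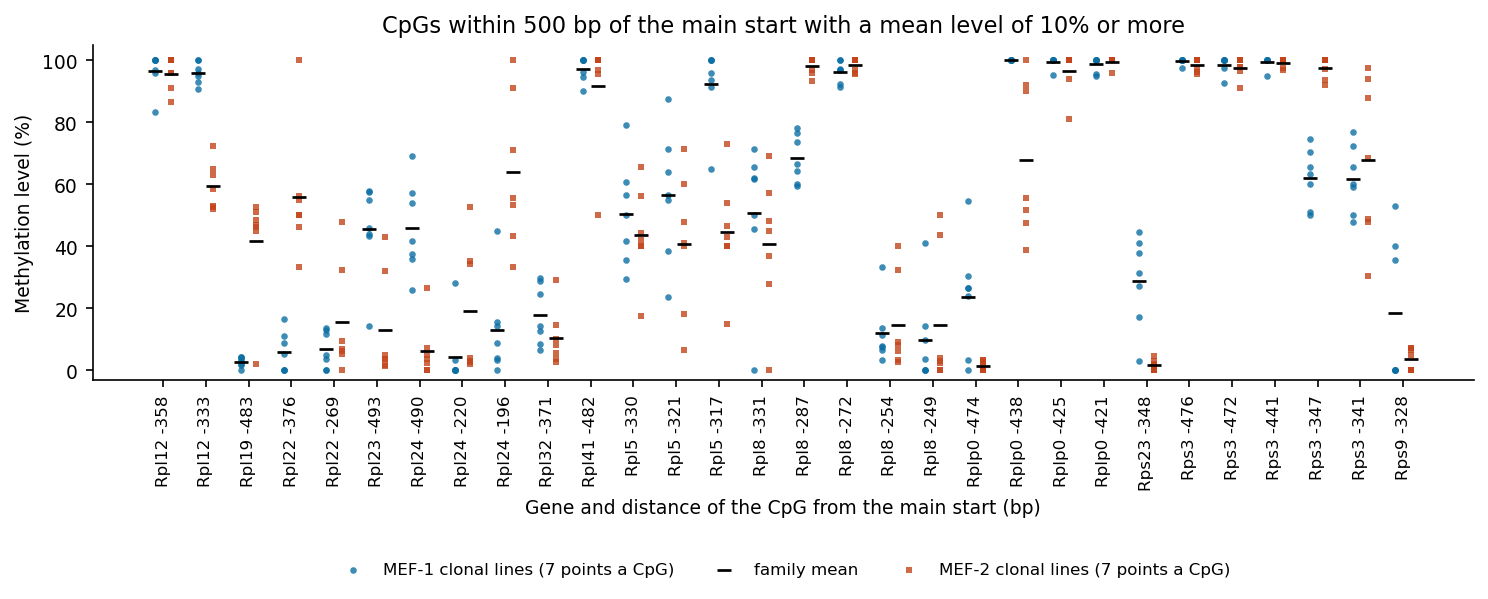
Methylation level (%) of the 30 CpGs within 500 bp of a main start with a clonal mean of 10% or more, with 1 point for each of 7 clonal lines a family and a black bar for the family mean. All lie upstream; some are above 80% in every line (Rps3 at -441), some differ between families (Rpl12 at -333, Rps3 at -347), and some spread widely within a family (Rpl8 at -331, from 0 to 71.4% in MEF-1).

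At several of these CpGs the families differed. The comparison between families used a quasi-binomial model of methylated and unmethylated reads over the 14 clonal lines with Benjamini-Hochberg adjustment over all CpGs of the table, and a CpG was called at an adjusted p under 0.05. At Rps3 -347 the MEF-1 lines measured 60%, 74.5%, 70.3%, 50.0%, 51.2%, 65.5% and 63.3% and the MEF-2 lines 100%, 93.8%, 100%, 97.3%, 100%, 100% and 91.9%. The groups did not overlap (mean 62.1% ± 9.17 against 97.6% ± 3.43, adjusted p = 6.83e-05 in the quasi-binomial model), although the neighbour 6 bp away, at -341, averaged 61.7% and 67.9% (adjusted p = 0.831, quasi-binomial model). At Rpl8 -287 the MEF-1 lines lay between 59.4% and 78.3% and the MEF-2 lines between 93.3% and 100% (adjusted p = 6.02e-05, quasi-binomial model). At Rpl12 -333 the order was the opposite, with 90.6% to 100% in MEF-1 and 52.0% to 72.2% in MEF-2 lines (adjusted p = 3.94e-05, quasi-binomial model).

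Among the 30 CpGs above, the one of Rpl24 at -196 lay closest to its main start. Its MEF-1 lines measured 4.17%, 0%, 44.8%, 14.3%, 3.45%, 8.70% and 15.6% and its MEF-2 lines 91.2%, 33.3%, 71.1%, 43.3%, 100%, 53.2% and 55.6%. Line 3 of MEF-1 reached into the range of MEF-2, and both families were spread widely (13.0% ± 15.2 against 63.9% ± 24.6, adjusted p = 0.0071, quasi-binomial model; without MEF-1 lines 1, 4 and 5, 17.3% against 63.9%, adjusted p = 0.0774). The parental libraries had 6 of 35 reads methylated (17.1%, interval 8.10 to 32.7) and 22 of 42 (52.4%, interval 37.7 to 66.6).

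Upstream of Rpl19, CpGs differed in both directions. At -615 the MEF-1 lines lay between 41.8% and 63.9% and the MEF-2 lines between 1.16% and 6.41% (adjusted p = 6.74e-07, quasi-binomial model), while at -483 MEF-1 lines were at 4.48% or less and MEF-2 lines averaged 41.7% ± 17.8 (adjusted p = 0.000185, quasi-binomial model). At -483, MEF-2 line 1 had 1.92% and the other 6 MEF-2 lines 45% to 52.8%. At -793 the means were 8.91% and 69.5%. The CpGs between -615 and -483, at -599 and -544, had means under 5% in both families.

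Over all 2960 CpGs, 193 (6.52%) were called between the families, of which 106 (3.58%) were higher in MEF-1 and 87 (2.94%) in MEF-2. Among all CpGs measured, 20.2% were called, with 11.6% higher in MEF-1 and 8.53% higher in MEF-2. A difference of 20 points or more was found at 162 of the called member CpGs (5.47%, against 17.9% of the table), and under 10 points at 27, of which 19 lay in the inner zone. By zone the called share was 1.70% within 500 bp (31 CpGs, other genes 7.08%), 2.32% in the downstream zone (12 CpGs, other genes 13.45%), 21.3% in the upstream zone (33 CpGs, other genes 17.97%) and 25.5% near other starts (117 CpGs, other genes 19.1%). The shares of the inner and downstream zones lay below those of other genes. The upstream share rests on 155 CpGs and lay near that of other genes and the 20.2% of all CpGs. The share near other starts was above that of other genes. Differences between these shares were not tested. Rpl38, Rplp1, Rps16 and Rps21 had none, and Rpl3 (24), Rpl6 (12), Rpl13 (11), Rpl7 (10) and Rpl23 (8) had the most.

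At the 162 CpGs with 20 points or more, 112 (69.1%) had 1 family between 30% and 70% and the other under 10% or at 90% or more, where the share among all such CpGs was 56.8%. At 2 (1.23%) the difference was complete, with 1 family under 10% and the other at 90% or more (2.20% of all such CpGs). These 2 were in Rpl13 and Rpl3.

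Rpl13 held the largest difference. At position 1232, in an intron of the main transcript and 73 bp before another annotated start, the MEF-1 lines measured 96.3%, 100%, 97.5%, 92.6%, 96.0%, 100% and 95.0%, and the MEF-2 lines 2.78%, 2.50%, 0%, 0%, 0%, 5.13% and 2.17%. No line came near the other family (96.8% ± 2.67 against 1.80% ± 1.93, adjusted p = 3.76e-08, quasi-binomial model). The parental libraries already differed in the same way, with 37 of 39 reads (94.9%, interval 83.1 to 98.6) in MEF-1 and 0 of 54 in MEF-2 (interval 0 to 6.64). Taking 3 reads as the limit that a count of 0 allows, the MEF-2 level could be up to 5.56%. At 1281 the MEF-1 lines ranged from 45.7% to 100% and the MEF-2 lines reached 5.13% at most (adjusted p = 3.37e-05, quasi-binomial model). At 1405 the direction was the opposite, with 4.00% to 45.9% in MEF-1 and 96.4% to 100% in MEF-2 lines (adjusted p = 4.9e-06, quasi-binomial model), and the CpG between them, at 1318, did not pass the test (48.9% ± 10.3 and 47.1% ± 6.75, adjusted p = 0.889, quasi-binomial model). Within 1 kb of the main start, Rpl13 stood at 2.04% and 1.69%.

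**Figure D4:**
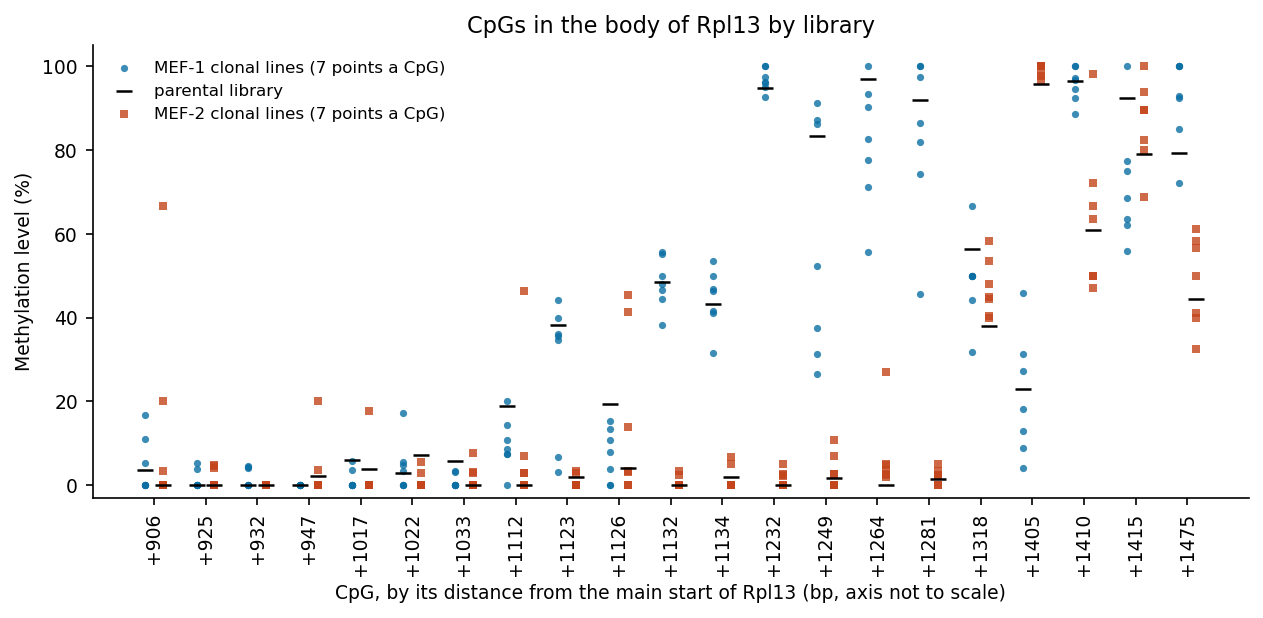
Methylation level (%) of 21 CpGs in the body of Rpl13, in order of position but not to scale, with 7 clonal lines a family as points and the parental library of each family as a black bar. Both families are at 20% or less up to position 1033, apart from MEF-2 line 7 with 66.7% at 906. Each MEF-1 line lies above each MEF-2 line from 1232 to 1281, with MEF-1 lines spread from 26.5% to 91.3% at 1249. Without MEF-1 lines 1, 4 and 5 the difference at 1249 was 33.6 points in place of 55.6 (adjusted p = 0.00239, quasi-binomial model). The order is turned at 1405.

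Rpl3, a large subunit protein that reaches towards the peptidyl transferase centre, had an annotated start far upstream of the main one. At -9037 its MEF-1 lines lay between 73.1% and 100% and its MEF-2 lines between 0% and 5.26% (92.7% ± 9.04 against 1.82% ± 2.00, adjusted p = 5.47e-07, quasi-binomial model). At -9066 the means were 96.6% ± 2.43 and 10.4% ± 11.3 (adjusted p = 2.72e-06, quasi-binomial model). At -9066 the MEF-1 parental library stood at 97.6% (interval 87.7 to 99.6) and the MEF-2 parental library at 32.6% (interval 20.5 to 47.5), above the mean of its clonal lines. Of the CpGs around the far Rpl3 start, 26 between -8477 and -8174 also lay within 1 kb of a start of Syngr1, a neighbouring gene. At its main start Rpl3 stood at 1.54% and 1.16% in the 2 families.

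Rps20 and Rpl9 differed upstream. The families overlapped narrowly at Rps20 -780, where the MEF-1 lines lay between 96.4% and 100% and the MEF-2 lines between 50.0% and 97.1% (98.7% ± 1.67 against 64.2% ± 16.3, adjusted p = 0.000249, quasi-binomial model), and at Rps20 1063, in a coding exon, MEF-1 lines ranged from 3.41% to 79.4% while MEF-2 lines stayed at 7.58% or less (adjusted p = 0.00166, quasi-binomial model). Without MEF-1 lines 1, 4 and 5 the difference at 1063 was 26.9 points in place of 45.6 (adjusted p = 0.00841, quasi-binomial model). At Rpl9 -799 and -793, 6 bp apart, the MEF-1 lines averaged 46.5% at each and the MEF-2 lines 1.14% and 1.13%, and at -667 the order was turned, with a MEF-1 mean of 0.854% and a MEF-2 mean of 35.8%. The 64 CpGs within 1 kb of the main start of Rpl9 also lay within 1 kb of a start of Lias.

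In Rpl23 all 8 called CpGs were higher in MEF-1. They lay upstream, as at -583 with 33.9% ± 21.2 against 0.976% ± 0.945 (adjusted p = 0.00228, quasi-binomial model), or far downstream, as at 4595 with 97.5% ± 2.65 against 55.6% ± 19.6 (adjusted p = 0.000181, quasi-binomial model), apart from 1 at 146 that was under 6% in every line. Without MEF-1 lines 1, 4 and 5, those at -583, 3890 and 4595 were still called. In Rpl6 the 12 called CpGs all lay between 1009 and 4423 and were mixed, 7 higher in MEF-1 and 5 higher in MEF-2. The calls at 1166, 1934 and 2287 were lost without MEF-1 lines 1, 4 and 5 (adjusted p = 0.0872 to 0.223, quasi-binomial model). The difference at 1009 was then 13.2 points in place of 32.9 (adjusted p = 0.0195, quasi-binomial model). At 3274 the MEF-1 lines lay between 44.8% and 70% and the MEF-2 lines at 96.9% or more, whereas at 1351 the means were 91.1% ± 7.05 and 46.2% ± 9.65.

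Rpl7 was higher in MEF-2, apart from 1 of its 10 called CpGs. Those at 1123, 1512, 1570 and 1577 were still called without MEF-1 lines 1, 4 and 5, all higher in MEF-2. The other calls were lost (adjusted p = 0.0882 to 0.207, quasi-binomial model). At 1512 in an intron, MEF-1 lines ranged from 2.86% to 27.0% and MEF-2 lines from 52.4% to 100% (10.0% ± 8.94 against 88.5% ± 16.2, adjusted p = 0.000121, quasi-binomial model).

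Summed over a promoter, 11 of 44 genes (25%) were called between the families, 7 higher in MEF-1 (15.9%) and 4 higher in MEF-2 (9.09%), where 44.8% of all promoters were called, 28.1% higher in MEF-1 and 16.8% higher in MEF-2. Without MEF-1 lines 1, 4 and 5 the number was 6, all among these 11, and Rps20, Rpl7, Rpl9, Rpl12 and Rpl15 were no longer called (adjusted p = 0.066 to 0.243, quasi-binomial model). Rpl13 (11.1% ± 1.17 against 7.20% ± 0.563, adjusted p = 0.000124, quasi-binomial model) and Rps20 (18.4% ± 1.74 against 14.7% ± 0.388, adjusted p = 0.0292, quasi-binomial model) differed by more than 3 points, although Rps20 differed by 2.38 points without MEF-1 lines 1, 4 and 5 (adjusted p = 0.243, quasi-binomial model), and Rpl7 had a difference of -7.80 points (29.5% ± 1.81 against 37.3% ± 1.94, adjusted p = 0.0393, quasi-binomial model). In Rpl7 each of the 7 MEF-2 lines (33.5% to 39.2%) lay above each MEF-1 line (27.5% to 31.8%). The other called genes moved little. The difference of Rpl38 was 0.414 points, where MEF-1 lines were higher by 0.359 points over all CpGs with a clonal mean under 5%. Rps27 (3.92% against 2.15%), Rpl9 (4.77% against 2.63%), Rpl12 (6.91% against 5.61%), Rpl15 (6.76% against 5.48%) and Rpl38 (1.59% against 1.18%) were higher in MEF-1, and Rps12 (8.76% against 9.58%), Rpl14 (8.25% against 9.14%) and Rps23 (a difference of -1.33 points) in MEF-2. Of the 44 genes, 24 had the higher mean in MEF-1, and 31 did when only the main start was counted. The same share was not counted over all promoters, and in the inner zone of other genes MEF-1 lines were also higher, by 0.495 points.

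The 459 CpGs more than 1 kb from the main start but near another annotated start, which 36 genes had, averaged 55.9% ± 1.81 in MEF-1 and 56.4% ± 0.801 in MEF-2 lines. The families overlapped (exact permutation p = 0.503), but without MEF-1 lines 1, 4 and 5 the MEF-1 mean was 54.4% and the difference was -1.94 points (exact permutation p = 0.00303). Most were nearest to the start of a transcript that is not the coding message: 240 (52.3%) belonged to retained-intron transcripts and averaged 61.5%, 74 to processed transcripts and averaged 74.9%, and 13 to nonsense-mediated decay transcripts and averaged 71.4%. The 132 CpGs nearest to another protein-coding start averaged 34.3%. In Rpl4 the 18 CpGs of this kind averaged 96.9%, against 1.21% within 500 bp of the main start.

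Of the 2960 CpGs, 636 (21.5%) in 14 genes also lay within 1 kb of a start of another protein-coding gene, among them 90 shared by Rpl12 and Lrsam1, 85 by Rpl18 and Sphk2, and 83 by Rpl15 and Nkiras1. Shared CpGs averaged 7.86% and 4.56% of them were called between families. The 2324 CpGs near ribosomal protein genes alone averaged 13.4% and 7.06% were called.

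Changes in single lines differed between zones. A CpG was counted as changed in a single line where the highest or lowest of the 7 lines of a family lay 20 points or more from the next. This held for 104 of 2960 CpGs in MEF-1 (3.51%, against 10.9% of all CpGs) and 156 in MEF-2 (5.27%, against 15.9% of all CpGs). Rpl38 and Rplp1 had none. Within 500 bp of the main start the share was lower than in other genes (0.766% against 4.88% in MEF-1, 1.26% against 7.67% in MEF-2), and near other starts it was higher (14.8% against 10.3%, and 20.5% against 15.3%). Of the 260 changes, 157 were gains and 103 losses. The genes with the highest numbers were Rpl3 (32), Rps18 (15), Rpl6 (13), Rpl7 (11), Rpl13 (11) and Rpl28 (10).

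At the member CpGs the level reached was mostly intermediate. The level reached was not counted over all CpGs, so these numbers have no background beside them. Where the other 6 lines had a median of 20% or less, the changed line lay between 20% and 80% in 104 cases and at 80% or more in 1. Where they had a median of 80% or more, it lay between in 61 cases and at 20% or less in 4. Where they were intermediate, it went to 20% or less in 33 cases and to 80% or more in 47. In 102 cases in 37 genes the other 6 lines were all under 10% or all at 90% or more, and the level of the changed line there had a median of 42.0%, with 41 of the 102 between 40% and 60%. Where the other 6 lines were all at 90% or more, losses made up 12 of 215 CpGs for MEF-1 (5.58%, against 4.05% of all such CpGs) and 25 of 210 for MEF-2 (11.9%, against 5.61%). In 11 of the 102, a measured neighbouring CpG had changed in the same line.

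**Figure D5:**
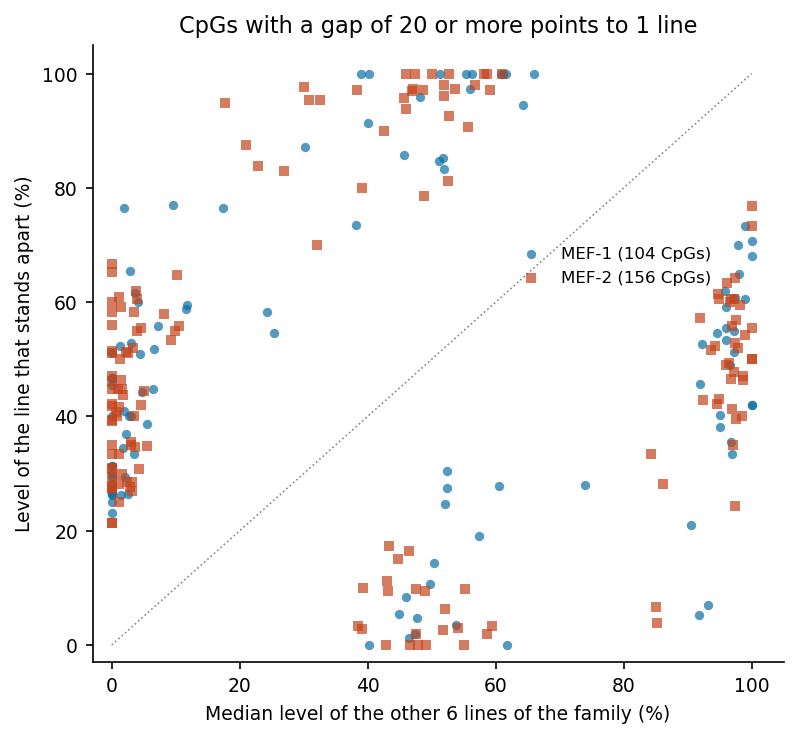
The 260 CpG changes in a single line, with the level (%) of the line that stands apart against the median level (%) of the other 6 lines of its family, in MEF-1 (104) and MEF-2 (156). Points gather at the left and right, where other lines are near 0 or 100% and the changed line is intermediate, and at the top and bottom middle, where the other lines are intermediate; the dotted line marks equal levels.

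The 5 largest gaps were these. At Rpl3 3669, in a coding exon, MEF-1 line 2 had 2 of 38 reads methylated (5.26%, interval 1.46 to 17.3) and the other 6 lines 78.8% to 100%. At Rpl18 -3266, MEF-1 line 7 had 13 of 17 reads (76.5%, interval 52.7 to 90.4) and the other lines 8.33% or less, and in the same line position -3073 stood at 76.9% against 14.8% or less. At Rpl3 3521, MEF-2 line 6 had 24.4% against 88.2% or more, with the neighbouring CpG 46 bp away at 28.1%. At Rpl24 -746, MEF-2 line 4 had 1 of 26 reads (3.85%, interval 0.682 to 18.9) and the others 67.6% to 94.1%, while its neighbour 20 bp away stood at 70.4%.

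Within 500 bp of the main start a gain over 6 lines that were all under 10% was seen at 24 CpGs in 17 genes, at levels of 21.4% to 52.3%. Among CpGs where the other lines were under 10%, such gains made up 0.451% for MEF-1 lines and 0.896% for MEF-2 lines, against 1.96% and 3.54% in other genes. The highest were Rps6 -490 in MEF-1 line 2 (23 of 44 reads, 52.3%, interval 37.9 to 66.2), Rpl24 -177 in MEF-2 line 6 (26 of 50 reads, 52.0%) and Rpl34 -389 in MEF-2 line 6 (25 of 49 reads, 51.0%). Of the 24, 10 lay downstream of the start, the highest being Rpl18 426 in MEF-2 line 2 (13 of 29 reads, 44.8%, interval 28.4 to 62.5). Several rested on few reads: at Rpl19 55 the changed line had 3 of 11 reads methylated, at Rpl30 7 it had 3 of 14 and at Rplp0 123 it had 3 of 13. The same CpG of Rpl4, at 373, was raised in 1 line of each family, with 9 of 34 reads in MEF-1 line 2 and 8 of 29 in MEF-2 line 3.

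Some changes ran over several CpGs of a gene in 1 line. MEF-2 line 4 gained at 4 CpGs upstream of Rpl22 between -817 and -273: it stood at 96.2%, 100%, 35% and 40% where the other MEF-2 lines lay at 67.7%, 56.3%, 4.00% and 8.82% or less. MEF-2 line 1 gained at 4 CpGs around the far start of Rpl3 between -8963 and -8212, MEF-1 line 6 at 3 CpGs in the body of Rpl7 between 1065 and 1104 (51.0%, 51.8% and 44.2%), and MEF-2 line 6 lost at 3 CpGs of Rpl27 between 1171 and 1730. In Rpl15 the CpGs at -633 and 1925 were lower in line 2 of each family, with 24.7% and 60.5% in MEF-1 line 2 and 3.36% and 46.5% in MEF-2 line 2, where other lines had at least 44.7% and 92.2% in MEF-1 and 34.9% and 93.4% in MEF-2. In Rpl27 the CpG at 3045 was fully methylated in 1 line of each family, with 68 of 68 reads in MEF-1 line 2 and 62 of 62 in MEF-2 line 5, while the others lay between 44.9% and 67.6%. These repeats were noticed in the values and were not tested, and the line numbers do not pair the families. Whether single lines differ in copy number at these genes was not tested either.

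At the level of whole promoters the largest gaps were small. Rpl7 in MEF-2 line 6 stood at 33.5% (other MEF-2 lines 36.7% to 39.2%), Rpl3 in MEF-2 line 1 at 20.2% (16.3% to 17.4%), Rpl32 in MEF-2 line 7 at 4.53% (0.748% to 2.17%), Rpl22 in MEF-2 line 4 at 15.5% (9.82% to 13.2%) and Rpl5 in MEF-2 line 7 at 17.4% (11.8% to 15.1%).

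The reads of every CpG in a clonal line were also set against those of the parental library of its family (Fisher's exact test, adjusted within a line over all CpGs measured). This compares libraries and takes reads as independent. Of 20720 pairs of a CpG and a line in each family, 197 (0.951%, against 3.46% over all CpGs) were called in MEF-1 and 379 (1.83%, against 6.57% over all CpGs) in MEF-2. MEF-1 lines 1, 4 and 5 had 11 to 13 calls each and the other MEF-1 lines 34 to 49, while MEF-2 lines had 42 to 63. As shares of the 2960 CpGs these were 0.372% to 0.439%, 1.15% to 1.66% and 1.42% to 2.13%, where the same lines had 1.34% to 1.54%, 4.54% to 5.53% and 4.68% to 7.93% over all CpGs.

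Taking as kept a level of 0 to 10%, 40 to 60% or 90 to 100%, the levels a CpG shows when all cells of a clone carry the same state on each allele, 95.5% of member CpGs and 88.4% of those of other promoters were kept on average (difference 7.08 points, higher in 14 of 14 lines, exact sign-flip p = 0.000122). The parental libraries stood at 93.9% and 94.1% for the members and at 84.8% and 81.9% for other genes, lower for other genes there too. The share differs with the level of the CpGs: in the members it was 98.1% in the inner zone, 97.2% downstream, 87.7% upstream and 84.7% near other starts, where other genes had 93.0%, 89.6%, 88.5% and 85.1%.

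Related gene lists were described by their median at the main start and by the promoters called over any start. Of the other ribosomal protein genes, 28 of 38 were measured, 27 of them at the main start with a median of 2.96%, and 13 of 28 promoters were called between families (46.4%, near the 44.8% of all promoters and above the 25% of members). The translation factors and other TOP genes (14 of 15 measured) had 1.58%, with 5 called (35.7%), and the ribosome assembly genes (all 22 measured) had 3.02%, with 6 called (27.3%). Among ribosomal protein genes that are not members, Rpl35 had the highest main-start level, 28.7%. Rpl39l, a copy expressed mainly in testis, stood at 80.5%, and it was the only measured paralog of 4 listed.

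RefSeq promoter sequence, from 250 bases before to 50 after the start, was matched for 37 of the 44 genes. It held a median of 21 CpGs in members and 15 over 15687 promoters. The ETS motif CCGGAAG, searched on both strands, was found in 12 of 37 (32.4%, all promoters 12.5%), the CRE core TGACG in 19 (51.4%, all 24.6%), the GC box GGGCGG in 19 (51.4%, all 48.6%), the E-box CACGTG in 4 (10.8%, all 8.12%), the YY1 motif AAGATGGCG in 1 (2.70%, all 2.04%) and TATAAA in 3 (8.11%, all 12.9%). The motifs may overlap each other. A C followed by 4 pyrimidines began exactly at the RefSeq start in 8 of 37 (21.6%, all 2.19%). Searched from 10 bases before to 15 after the start, it was found in 18 of 37 (48.6%, all 31.5%). Every measured CpG inside a motif match in the members had a clonal mean of 3.19% or less, and the 11 in ETS matches had a median of 1.52%. The searched sequence lies mostly in the unmethylated stretch described above. CpGs outside motif matches were not set beside these, so the values say nothing of the motifs themselves. In the printed core of Rps6 the letters cCGgaag are an ETS match.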

How the data were processed

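Target capture bisulfite sequencing was applied to 2 parental and 14 clonal MEF libraries. The authors trimmed reads with Trim Galore 0.6.0, aligned them to mm10 with Bismark, left out reads of low mapping quality, analysed the extracted calls in R 3.6.1, and deposited counts of methylated and unmethylated reads per CpG, kept in the table of all libraries where each library had 10 reads or more. Sources used here state no removal of PCR duplicates and no conversion rate. Chromosomes 12, 18, 19, X and Y are not in that table, so genes there were not analysed here.

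CpGs were assigned to transcript starts of GENCODE M21. The main start is that of the APPRIS principal protein-coding transcript with the best support. Levels were computed per CpG and averaged with equal weight. Families were compared over 7 against 7 clonal lines by exact permutation, zones and gene sets by exact sign-flip tests over 14 lines, and CpGs and promoters by a quasi-binomial F-test with dispersion of at least 1, tested on simulated data, with Benjamini-Hochberg adjustment over all CpGs or all promoters (threshold 0.05). Clonal and parental counts were compared by Fisher's exact test. Python 3.11.15, NumPy 2.4.6, SciPy 1.17.1, pandas 2.3.3, R 4.3.3 and limma 3.58.1 were used. Alternatives were other read minimums (5, 20), the main start alone, a 500 bp window, summed reads, zones divided nearer to or further from the start, gaps of 10 and 30 points, limma on the logit of the level, a replicate block and leaving out lines. Zones, the core window and named promoters and CpGs were repeated without MEF-1 lines 1, 4 and 5, a choice made after seeing the data.

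The members and lists were chosen with earlier results of these data known. Named genes are the 6 highest and 6 lowest promoters, genes with called promoters, those with the 5 largest promoter gaps and the 5 highest on each side beyond 500 bp. Named CpGs are the 5 with the largest family differences and gaps. Of the genes with 3 or more called CpGs (30) and those with changes of single lines at 2 or more CpGs (37), only some are named. Genes and CpGs named beside these were chosen after their values were seen.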

Additional observations from a re-analysis of the deposited data

Results flagged for a closer look

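In 8 of 88 groups of 7 clonal lines, the promoter level of 1 line lay far from the others by Dixon's criterion. Independent values from a normal distribution meet it in about 1 in 20 groups. Whether levels of clonal lines are of that kind was not tested. The share over all promoters was not counted, so the 8 have no background beside them. Of the 8, 6 were in MEF-2 lines. They were Rpl3 in MEF-2 line 1 at 20.2% (other lines 16.3% to 17.4%), Rpl24 in MEF-2 line 4 at 14.5% (16.3% to 17.6%), Rpl30 in MEF-2 line 5 at 12.0% (10.6% to 11.0%), Rpl32 in MEF-2 line 7 at 4.53% (0.748% to 2.17%), Rps15 in MEF-2 line 1 at 4.13% (1.41% to 2.51%) and Rps9 in MEF-2 line 7 at 3.79% (1.86% to 2.64%). In MEF-1 they were Rps3 in line 5 at 6.93% (7.89% to 8.56%) and Rps6 in line 2 at 4.30% (2.26% to 2.95%). The Rps6 line is the one with the gain at -490.

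Of 9 differences tested between the families, 5 passed an exact permutation test after Benjamini-Hochberg adjustment. The step from the downstream to the upstream side of the members was 31.4 points in MEF-1 and 28.5 in MEF-2 (difference 2.89, adjusted exact permutation p = 0.00524), and the step from the inner zone to the upstream side was 31.5 and 28.8 (difference 2.64, adjusted exact permutation p = 0.00524). On the upstream side the members exceeded other genes by 9.62 points in MEF-1 and 7.72 in MEF-2 (difference 1.90, adjusted exact permutation p = 0.0210). Without MEF-1 lines 1, 4 and 5 that difference was 1.19 and did not pass (adjusted exact permutation p = 0.152), with 7.63 to 10.3 points in MEF-1 lines and 5.85 to 8.76 in MEF-2 lines. On the downstream side they were below other genes by -12.8 and -12.02 points (difference -0.734, adjusted exact permutation p = 0.00524), and over whole promoters by -10.5 and -9.75 points (difference -0.794, adjusted exact permutation p = 0.00524). These other 4 differences passed without the 3 lines too (adjusted exact permutation p = 0.0182 to 0.0273), as did that of the step from the inner zone to the downstream side (-0.516 points, adjusted exact permutation p = 0.0273), which did not with all lines.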

How the results depend on the processing

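The lower level of members than of other promoters, the rise beyond 500 bp and the larger share of kept levels held direction and significance under each alternative run. Divided further out, the rise was 12.1 points in place of 7.11, and nearer in, 4.75. Without the window at 40 to 60%, the difference in kept levels was 11.2 points in place of 7.08 (exact sign-flip p = 0.000122). The family difference in promoter level was 0.213 points in the report. It became 0.396 with a minimum of 5 reads (exact permutation p = 0.00932) and 0.489 with the main start only (p = 0.000583, exact permutation). With a minimum of 20 reads it was 0.102 (p = 0.701, exact permutation) and within 500 bp of any annotated start 0.131 (p = 0.293, exact permutation). Without MEF-1 lines 1, 4 and 5 it turned to -0.0975 (p = 0.406, exact permutation). Leaving out 1 line at a time gave 0.132 to 0.290.

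The 193 CpGs called between families were 126 with a minimum of 20 reads, 76 with the main start only and 112 within 500 bp of any annotated start. Without lines 1, 4 and 5 they were 135 (126 of them among the 193), by limma 205, and leaving out 1 line 176 to 187. The 11 called promoters were 6 without lines 1, 4 and 5, 12 by limma, 15 with a minimum of 20 reads and 7 to 12 leaving out 1 line, with 7 without MEF-2 line 5. The 576 calls against parental libraries were 199 with the main start only and 298 within 500 bp of any annotated start. The 260 changes of single lines were 152 with a minimum of 20 reads and 98 with the main start only. Within 500 bp of any annotated start they were 149, and leaving out 1 line 246 to 267. A gap of 10 points gave 600 and a gap of 30 points 141. Narrower windows and a higher read minimum test fewer CpGs by construction. The cause of the other shifts was not tested.

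The replicate numbers only name lines: correlations of same-numbered lines ran from -0.0881 to 0.187 and 1 of 7 lines matched its own number best. With the number as a replicate block, 158 CpGs and 8 promoters were called and the promoter difference stayed 0.213 (p = 0.266, exact sign-flip test over same-numbered pairs of lines). Read depth limits single CpGs, where 10 reads resolve steps of 10 points.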
